A study of Mus musculus with 3 samples.

Results

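The Id genes Id1, Id2, Id3 and Id4 encode a small family of helix-loop-helix proteins. Peaks of Notch2 occupancy near them were taken from chromatin immunoprecipitation and sequencing (ChIP-seq) of whole embryonic mouse kidney at stage E16.5, a stage at which new nephrons are forming. The groups were 2 immunoprecipitations with an anti-Notch2 antibody from Cell Signaling Technology, numbered 1 and 2 by the labels, and 1 input DNA sample, which was not analysed here. All 3 samples came from embryonic kidney of the same stage, and the labels name no mouse strain, genotype or number of kidneys or litters. The members were all listed peaks that touched a window of 100 kb either side of a gene position on the mm9 build. These positions were 152.562 Mb of chromosome 2 for Id1, 25.78 Mb of chromosome 12 for Id2, 135.70 Mb of chromosome 4 for Id3 and 48.357 Mb of chromosome 13 for Id4. The members were thus chosen by peak position, a measured value, and by no other value of the lists. They numbered 34 of the 28651 peaks of replicate 1 and 12 of the 12585 peaks of replicate 2, or 46 of 41236 in both lists together.

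Id proteins carry a helix-loop-helix domain for pairing with other proteins but lack the basic region that contacts DNA. They bind E proteins such as the products of Tcf3, Tcf4 and Tcf12 and keep them off their DNA sites, which holds back differentiation in many lineages. The genes are widely known as targets of bone morphogenetic protein (BMP) signalling, which itself acts in kidney development. Notch2 is a cell surface receptor whose released inner fragment joins the DNA-binding protein RBPJ in the nucleus, and it is needed for the proximal parts of the nephron. Whole kidney mixes many cell types, so a peak does not say in which of them Notch2 lay. The lists carry no reads and no expression values, and the labelled tissue could not be checked against marker genes.

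The gene positions of Id2 and Id3 lay within 10 kb of wide or early peaks, described further on, and that of Id4 had no peak within 10 kb in either list. The promoters of these 3 genes are shown because they were the ones matched in the RefSeq promoter table. Id1 had no entry there. Each sequence is the 250 bases before the gene start, read 5′ to 3′ on the gene's own strand, from RefSeq on the GRCm38.p6 build (Id2 on chromosome 12, minus strand; Id3 on chromosome 4, plus strand; Id4 on chromosome 13, plus strand). Positions on that build were not combined with the mm9 peaks. Capitals mark TGGGAA, the core of the RBPJ motif, on either strand, and GGCGCC, a sequence found in BMP-responsive elements.
Id2: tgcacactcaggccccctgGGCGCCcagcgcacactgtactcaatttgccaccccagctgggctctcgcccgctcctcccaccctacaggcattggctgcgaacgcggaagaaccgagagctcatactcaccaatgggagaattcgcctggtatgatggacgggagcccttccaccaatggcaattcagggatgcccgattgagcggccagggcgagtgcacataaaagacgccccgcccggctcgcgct
Id3: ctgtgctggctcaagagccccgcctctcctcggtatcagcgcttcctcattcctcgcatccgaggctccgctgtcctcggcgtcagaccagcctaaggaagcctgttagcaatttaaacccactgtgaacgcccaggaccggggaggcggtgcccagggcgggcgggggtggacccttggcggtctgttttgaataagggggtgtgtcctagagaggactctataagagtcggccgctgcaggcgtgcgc
Id4: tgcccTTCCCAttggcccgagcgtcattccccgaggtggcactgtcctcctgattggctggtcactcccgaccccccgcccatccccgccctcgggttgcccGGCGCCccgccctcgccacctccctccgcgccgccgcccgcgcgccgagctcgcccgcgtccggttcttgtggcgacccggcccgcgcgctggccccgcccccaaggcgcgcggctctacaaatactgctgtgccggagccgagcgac

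The 3 promoters were rich in G and C. The GC share was 62.8% for Id2, 62.8% for Id3 and 75.6% for Id4, against a median of 52.4% over all 32851 promoters of the table. TGGGAA was searched on both strands and occurred in Id4 alone of the 3, beginning 245 bases before the start, and 21.6% of all promoters hold it. The longer RBPJ motif GTGGGAA, which contains TGGGAA, was in 0 of the 3, and 5.42% of all promoters hold it. GGCGCC, which reads the same on both strands, occurred 231 bases before the start in Id2 and 148 bases before it in Id4, and 9.59% of all promoters hold it. The E-box CANNTG, the site of E proteins, was in Id2 alone, 196 bases before the start, and 66.2% of all promoters hold it. Among the Notch targets of the table, Hes5 had 2 matches to GTGGGAA, Hey2 had 1 and Nrarp had 0. These matches are descriptions of letters in a short window and not of binding, and the peaks themselves reach well outside it. The shares over all promoters were not matched for GC content, so an excess cannot be read from them.

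The windows of Id1, Id2 and Id3 were dense in replicate 1, and that of Id4 was not. The 200 kb around Id1 held 11 peaks in replicate 1 and 4 in replicate 2. That around Id2 held 11 and 2, that around Id3 held 10 and 4, and that around Id4 held 2 and 2. Id1, Id2 and Id3 were therefore close together in replicate 1, whereas in replicate 2 Id2 had the same number as Id4. The 12785 windows of 200 kb tiled over all chromosomes held a mean of 2.25 ± 2.7 peaks in replicate 1 and 0.987 ± 1.64 in replicate 2 (SD over windows, which are not replicate samples), and 32.9% and 56.1% of them held none.

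**Figure D1:**
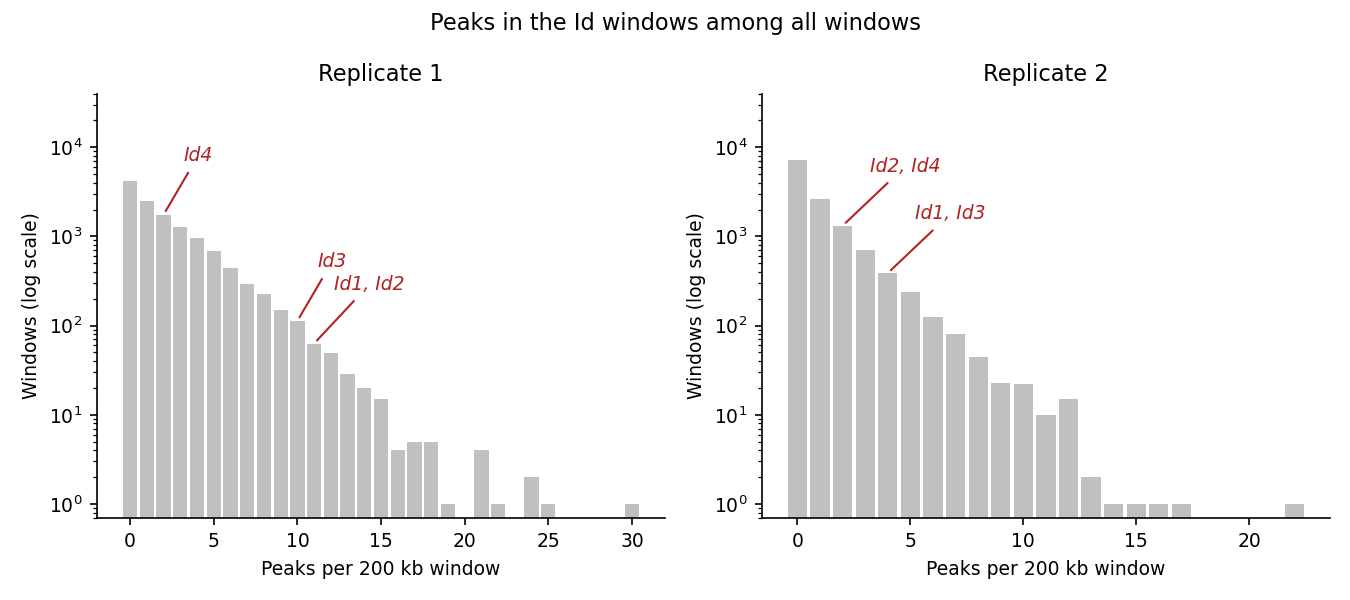
Number of 200 kb windows tiled over the genome (log scale) by the number of peaks they hold, for replicate 1 (left) and replicate 2 (right), with the Id windows pointed out in red at their own counts. Id1, Id2 and Id3 stand at 10 or 11 peaks in replicate 1, and in replicate 2 Id1 and Id3 stand at 4 and Id2 and Id4 at 2.

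Read against all windows, the replicate 1 counts lay in the upper tail for Id1, Id2 and Id3. In replicate 1, 1.56% of windows held at least 11 peaks, as the Id1 and Id2 windows did, and 2.45% held at least 10, as the Id3 window did. In replicate 2, 7.43% of windows held at least 4 peaks, the count of Id1 and Id3. The 2 peaks of Id2 and Id4 were matched or passed by 23.3% of windows in replicate 2, and the 2 peaks of Id4 by 47.8% in replicate 1, so that the Id4 window was near the background. Counts at least as high in both replicates at the same time were found in 1.17% of windows for Id1, 1.48% for Id2, 1.67% for Id3 and 21.6% for Id4. Windows centred on a listed peak are denser than windows laid without regard to peaks. Among 41236 such windows, 10.3% held at least 11 replicate 1 peaks, 14.2% at least 10, and 30.4% at least 4 replicate 2 peaks. For the 2 peaks of Id2 and Id4 in replicate 2 the share was 61.6%, and for the 2 peaks of Id4 in replicate 1 it was 90.8%. No test was made, because the genes were chosen with results of these data known.

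Replicate 1 listed more peaks than replicate 2 over the 4 windows, at 34 against 12, a ratio of 2.83 (95% exact interval 1.43 to 6.01, for counting error only), and the ratio of the whole lists was 2.28. The ratio was 2.75 for Id1 (0.815 to 11.8), 5.5 for Id2 (1.2 to 51.1), 2.5 for Id3 (0.721 to 10.9) and 1.00 for Id4 (0.0725 to 13.8). Each interval includes the ratio of the whole lists. The intervals treat peaks as independent, although 11 regions were in both lists and peaks of the same locus can lie in groups. They therefore cannot serve as a test against the ratio of the whole lists. Sequencing depth behind the lists is unknown, and its part in the ratio was not tested.

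Peaks close to the gene position were most numerous at Id3, fewer at Id1 and Id2, and absent at Id4. Within 10 kb of the 4 positions together lay the centres of 10 replicate 1 peaks and 7 replicate 2 peaks, or 125 and 87.5 per Mb, against 11.2 and 4.92 per Mb in the whole lists. The whole-list densities include the 82.1% and 91.5% of 20 kb windows with no peak in replicates 1 and 2. No density around other genes was computed, so the excess cannot be read as particular to the Id genes. From 10 to 50 kb the densities were 37.5 and 9.38 per Mb. From 50 to 100 kb they were 30.0 and 5.0 per Mb. The replicate 1 value, above that of its whole list, rested on 12 peaks, of which 6 were at Id1. The replicate 2 value rested on 2 peaks, both at Id1 near the limit of its window, with 0 at the other loci. Of the peaks within 10 kb, 5 of 10 in replicate 1 and 4 of 7 in replicate 2 belonged to Id3 alone, and Id4 gave 0 in both. The positions of Id2 and Id3 are known here to within 5 kb and those of Id1 and Id4 to within 0.5 kb, and no mm9 annotation was used, so that a peak cannot be placed in a promoter, exon or intron.

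**Figure D2:**
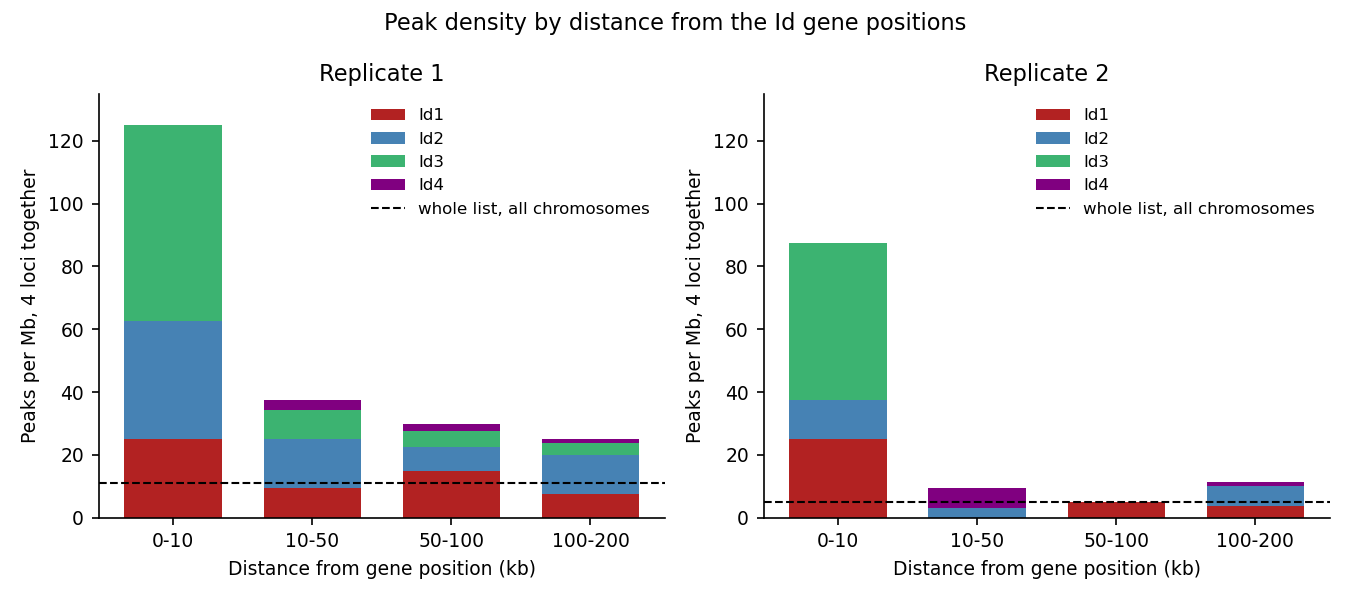
Peaks per Mb by distance of the peak centre from the gene position (kb), with the 4 loci stacked by colour, in replicate 1 (left) and replicate 2 (right), and the dashed line at the density of the whole list. The nearest 10 kb stands at 125 per Mb in replicate 1 and 87.5 in replicate 2, and Id3 gives the largest block in both.

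**Figure D3:**
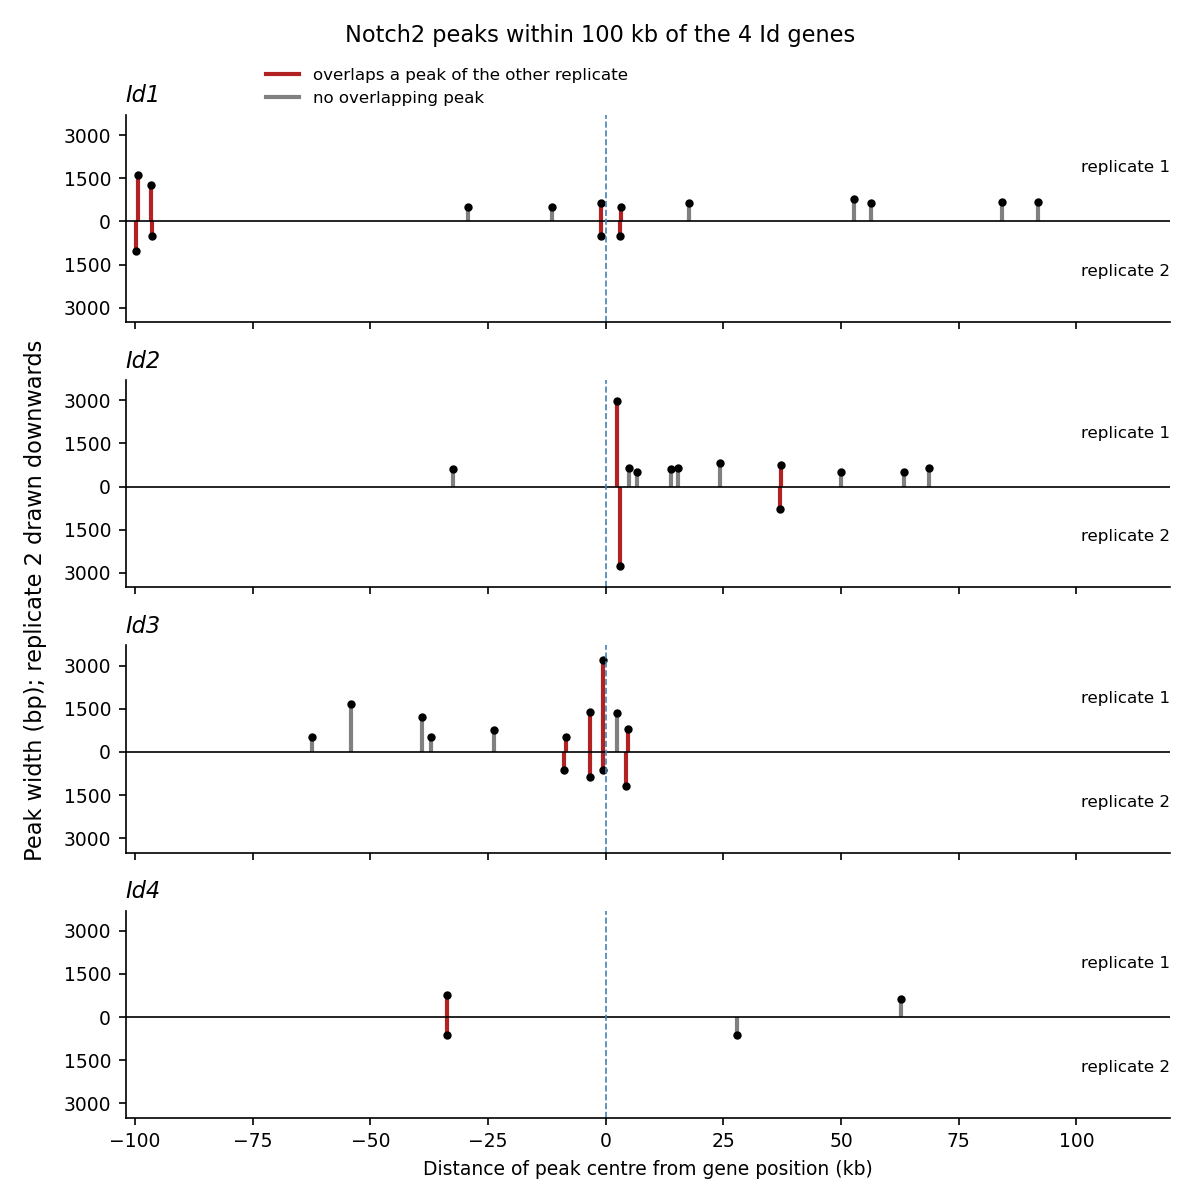
Each stem is a peak, placed by the distance of its centre from the gene position (kb) and as long as the peak is wide (bp), with replicate 1 upwards and replicate 2 downwards, red where it overlaps a peak of the other replicate and grey where it does not. Id2 has wide peaks of both replicates just above its position, Id3 has a group of peaks between -8.83 and 4.76 kb, and Id4 has its shared peak at -33.7 kb.

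Id2, which in mice is known for its part in innate lymphoid cell development, had the earliest peak of the family in both lists. In replicate 1 it lay at chr12:25780964-25783937 and measured 2974 bp. In replicate 2 it lay at chr12:25781690-25784454 and measured 2765 bp. It was also the widest Id2 peak in both, and the files hold it at place 296 in replicate 1 and place 124 in replicate 2. Its centre was 2.45 kb above the gene position in replicate 1 and 3.07 kb above it in replicate 2, and the peaks overlapped by 2248 bp. Only 0.185% of the replicate 1 peaks and 0.119% of the replicate 2 peaks were at least this wide. Of the tiled windows, 0.618% held a replicate 1 peak and a replicate 2 peak each at least as early, whether or not these overlapped. The tiled windows include the 32.9% and 56.1% with no peak in replicates 1 and 2. These limits are the widths and places of the Id2 peak itself, named as the earliest of the family. The shares are thus small largely by construction and do not measure rarity.

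The other Id2 peaks differed between the replicates. The second shared peak, 37.3 kb above the position in replicate 1 and 37.0 kb in replicate 2, measured 768 bp and 787 bp and stood at places 7213 and 3767. All 9 remaining peaks were listed in replicate 1 and not in replicate 2. The foremost of these lay at chr12:25803891-25804721, 24.3 kb above the position, at place 1396, which is within the first 4.87% of the file. The replicate 1 peak next above the wide one at place 296, centred 4.93 kb above the position and 631 bp wide, lay 0.163 kb from the nearest replicate 2 peak. The gene lies on the minus strand, so higher coordinates are its upstream side. Of the 8 replicate 1 peaks beyond 10 kb, 7 were upstream and 1 was downstream, 32.5 kb below the position. In the RefSeq order of protein-coding genes Id2 stands between Kidins220 at lower and Rnf144a at higher coordinates.

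Id3, which in the mouse embryo acts together with Id1 in blood vessel growth, had the tightest group of peaks. Within 10 kb of its position replicate 1 had 5 peaks and replicate 2 had 4. All 4 replicate 2 peaks of the Id3 window were in this group, and each overlapped a replicate 1 peak. Of 127916 windows of 20 kb, 0.0414% held at least 5 replicate 1 peaks, 0.0414% at least 4 replicate 2 peaks and 0.00782% both. Of 41236 such windows centred on a listed peak, 0.332% held both. For Id1, with 2 and 2 peaks within 10 kb, the shares with as many in both replicates were 1.01% of windows and 14.9% of windows centred on a peak. For Id2, with 3 and 1, they were 0.664% and 10.6%. All these limits are the genes' own counts, and Id3 was singled out as the tightest group after the counts were seen. The windows centred on a peak include those centred on the Id peaks themselves. The shares are therefore descriptions and do not measure rarity.

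The widest Id3 peak of replicate 1 covered the gene position as listed, which is known only to within 5 kb. It lay at chr4:135697841-135701045, measured 3205 bp and stood at place 502. Its counterpart in replicate 2, at chr4:135699023-135699660, measured 638 bp and stood at place 2255, and it lay wholly inside the wider peak. The earliest Id3 peak of replicate 1 was its neighbour at chr4:135695911-135697288, 3.4 kb below the position, which measured 1378 bp and stood at place 463. The counterpart of this neighbour, at chr4:135696222-135697080, measured 859 bp and stood at place 1077. These shared peaks were thus early and wide in replicate 1, and narrower and less far forward in replicate 2.

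The earliest Id3 peaks of replicate 2 were elsewhere. Its widest and earliest peak lay at chr4:135703633-135704816, 4.22 kb above the position, measured 1184 bp and stood at place 145. The replicate 1 peak that it overlapped, by 447 bp, lay at chr4:135704370-135705160, measured 791 bp and stood at place 12173. A second replicate 2 peak lay at chr4:135690855-135691485, 8.83 kb below the position, measured 631 bp and stood at place 549. It overlapped by 165 bp a replicate 1 peak of 500 bp at chr4:135691321-135691820, which stood at place 23523. The replicates therefore put different members of the same group foremost. Among 9531 overlapping pairs of the whole lists, 4, or 0.042%, were as late as place 12173 in replicate 1 and as early as place 145 in replicate 2. For the pair at places 23523 and 549 the number was 8, or 0.0839%. These limits are the places of the Id3 pairs themselves, and each count includes its own pair. Few pairs can stand as early as places 145 and 549 in replicate 2, so the shares are small largely by construction and do not measure rarity. Places further apart than 25 percentage points of the files were not rare as such, and were found in 3 of the 11 Id pairs and in 35.4% of all pairs. In replicate 1 a peak of 1365 bp at chr4:135701775-135703139 (place 6255) filled part of the gap, and it lay 0.494 kb from the nearest replicate 2 peak.

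**Figure D4:**
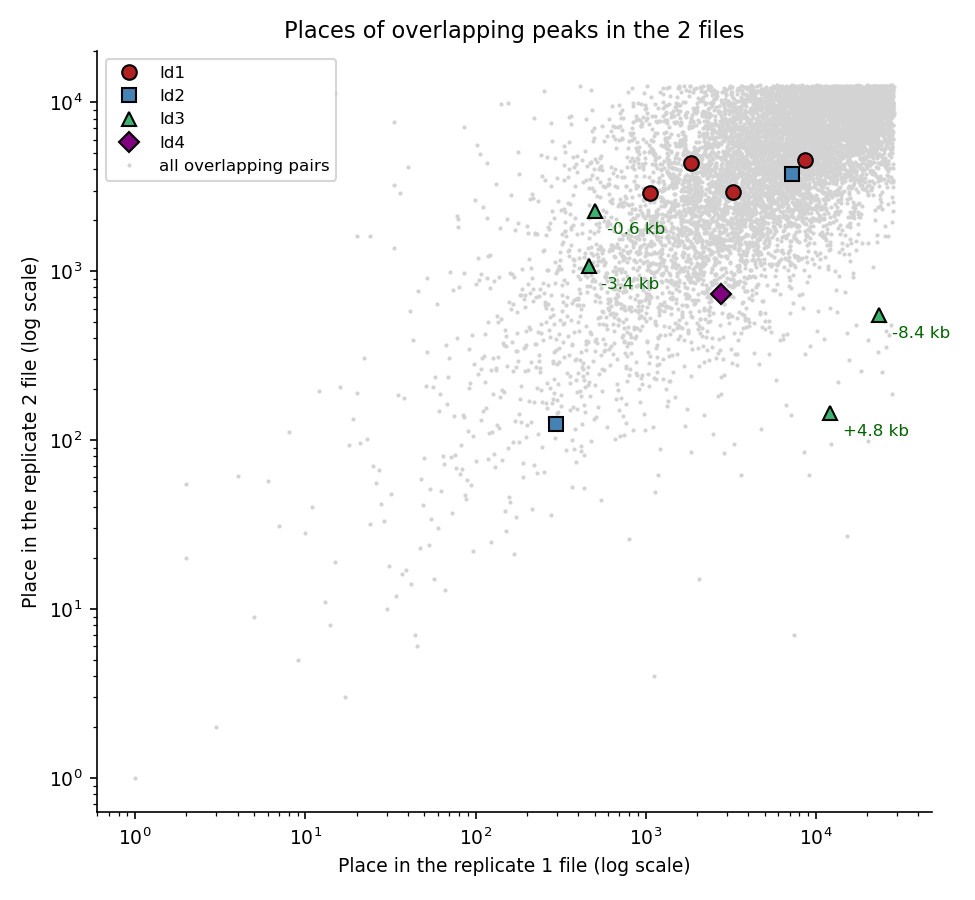
Places of overlapping peaks in the replicate 1 file (x axis) and the replicate 2 file (y axis), both on log scales, with the Id pairs as coloured symbols over all pairs in grey, and the Id3 pairs labelled by the distance of the replicate 1 centre from the gene position. The Id2 pair at places 296 and 124 lies with the early pairs, and 2 Id3 pairs lie at the lower right, late in replicate 1 and early in replicate 2.

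Away from this group Id3 had peaks in replicate 1 alone. All 5 replicate 1 peaks beyond 10 kb lay below the position, between 23.8 and 62.3 kb from it, which is upstream for a gene on the plus strand. They included peaks of 1658 bp at chr4:135645032-135646689 (place 10208) and of 1229 bp at chr4:135660279-135661507 (place 5042). Above the position no peak of either list followed the one centred at 4.76 kb up to the end of the window. In the RefSeq order Id3 stands between Rpl11 at lower and E2f2 at higher coordinates.

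Id1, a common readout of BMP signalling, had narrow peaks near the gene and its widest ones far from it. Near the gene position both replicates had the same pair of narrow peaks. The nearer one lay 0.901 kb below the position in replicate 1 at chr2:152560784-152561414 (631 bp, place 8646) and 1.02 kb below it in replicate 2 at chr2:152560734-152561233 (500 bp, place 4572). The other lay 3.17 kb above the position in replicate 1 at chr2:152564925-152565424 (500 bp, place 3239) and 3.11 kb above it in replicate 2 at chr2:152564865-152565364 (500 bp, place 2930). Neither pair was wide, and their centres were 116 and 60.0 bp apart between the replicates. The second stood in the first 11.3% of the file in replicate 1 and the first 23.3% in replicate 2.

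The widest and earliest Id1 peaks of both lists were far from the gene, at the limit of the window. In replicate 1 the foremost lay at chr2:152461872-152463478, 99.3 kb below the position, measured 1607 bp and stood at place 1062. Its counterpart in replicate 2 lay at chr2:152461630-152462672, measured 1043 bp and stood at place 2891. A second shared peak beside it, 96.5 kb below the position in replicate 1, measured 1279 bp there and 500 bp in replicate 2. Id1 stands between H13 at lower and Cox4i2 at higher coordinates in the RefSeq order, and peaks at this distance may lie nearer to other genes than to Id1. The 7 remaining peaks, all in replicate 1 alone, measured 500 to 792 bp, and they stood at places 13352 to 28268.

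Id4, known in mice for its part in neural precursors and in spermatogonial stem cells, had the fewest peaks. Its shared peak lay 33.7 kb below the position in both lists, at chr13:48322938-48323710 in replicate 1 (773 bp, place 2772) and at chr13:48322984-48323615 in replicate 2 (632 bp, place 733). The centres were 24.5 bp apart, the smallest gap of the 11 Id pairs, and the replicate 2 peak lay wholly inside that of replicate 1. Peaks as early in each file, whether or not they overlapped, were found in 3.98% of windows. This was near the 5.51% for the earliest Id1 peaks and above the 0.782% for the earliest Id3 peaks, which did not overlap each other. Each of these shares is set by the gene's own earliest places and does not measure rarity. The other peaks were not shared. They lay 62.7 kb above the position in replicate 1 (641 bp, place 18719) and 28.0 kb above it in replicate 2 (636 bp, place 12501 of 12585). Id4, on the plus strand, stands between Rnf144b and Zfp169 in the RefSeq order, and its shared peak was on the upstream side.

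Sharing between the replicates was unequal in its 2 directions, as in the whole lists. Of the 12 replicate 2 Id peaks, 11 touched a peak of replicate 1 over 1 bp or more, or 91.7% (95% Wilson interval 64.6 to 98.5%), against 75.5% over the list. Of the 34 replicate 1 Id peaks, 11 were shared, or 32.4% (19.1 to 49.2%), against 33.0% over the list. Both intervals include the share of the whole list. They treat peaks as independent, although peaks of the same locus can lie in groups, so they cannot serve as a test against that share. The shared peaks numbered 4 at Id1, 2 at Id2, 4 at Id3 and 1 at Id4. In all, the windows held 35 distinct regions, of which 11 were in both lists, 23 in replicate 1 alone and 1 in replicate 2 alone.

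The overlaps of the Id pairs were often partial. Their centres lay a median of 224 bp apart, with a range of 24.5 to 622 bp, against a median of 82.0 bp over all 9531 overlapping pairs. Of the 11 Id pairs, 6 had centres within 250 bp, and 87.6% of all pairs did. Replicate 1 had the wider peak in 7 pairs and replicate 2 in 3, and 1 pair was equal. The share of pairs wider in replicate 1 was 63.6% at the Id loci and 66.7% over all pairs. The largest distance, 622 bp, was that of the wide Id2 peak, which began at a lower coordinate in replicate 1.

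Most Id peaks of replicate 2 stood early in the file, and those of replicate 1 were spread through it. In replicate 2, 8 of 12 were in the first 25% of the file, or 66.7% (95% Wilson interval 39.1 to 86.2%). In replicate 1, 11 of 34 were, or 32.4% (19.1 to 49.2%), and this interval includes 25%. Both intervals treat peaks as independent, although the 4 replicate 2 peaks of Id3 lie in the same group within 10 kb of its position. The replicate 2 interval is therefore too narrow to serve as a test against 25%. By gene these were 2 of 4 for Id1, 1 of 2 for Id2, 4 of 4 for Id3 and 1 of 2 for Id4 in replicate 2, and 3 of 11, 2 of 11, 5 of 10 and 1 of 2 in replicate 1. The sources used here do not say what sets the order of the files. In the whole replicate 2 list 93.3% of the peaks in the first 25% were shared, against 75.5% of all peaks, so that place and sharing go together there too.

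Widths of the Id peaks resembled those of the lists apart from the few wide ones already named. The median was 640 bp in replicate 1 and 637 bp in replicate 2, against 637 and 626 bp over the lists. The narrowest listed width, 500 bp, was that of 9 of 34 Id peaks in replicate 1, or 26.5%, and of 3 of 12 in replicate 2, or 25%, against 31.8% and 47.9% over the lists. All 3 in replicate 2 were at Id1. Of the 9 in replicate 1, Id1, Id2 and Id3 had 3 each. Peaks covered 4.15% of the Id1 window, 4.62% of the Id2 window, 5.94% of the Id3 window and 0.707% of the Id4 window in replicate 1, against a mean of 0.852% over all windows. In replicate 2 they covered 1.09%, 1.78%, 1.66% and 0.634%, against a mean of 0.329%.

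The limit of 100 kb passed closest to members at Id1. The furthest members of that window lay 99.3 kb from the position in replicate 1 and 99.8 kb in replicate 2, and the nearest peaks left out lay 102 kb and 114 kb away, both 500 bp wide. The number of Id1 peaks rested on this limit, since the window held 9 peaks in replicate 1 and 2 in replicate 2 when it was shifted by 10 kb to higher coordinates. A count of 2 replicate 2 peaks was matched or passed by 23.3% of tiled windows, so the place of Id1 among windows in replicate 2 rested on the limit too. A shift of 10 kb to lower coordinates left 11 and 4 at Id1 and gave 12 and 2 at Id2. At Id2 the furthest members lay at 68.7 and 37.0 kb and the nearest peaks left out at 107 and 123 kb. At Id3 these were 62.3 and 8.83 kb inside, and 116 and 578 kb outside. At Id4 they were 62.7 and 33.7 kb inside, and 130 and 151 kb outside.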

How the data were processed

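Notch2 ChIP-seq and an input were made from embryonic kidneys, per the labels. Per the submitters' processing notes, which give no roles or versions, Bowtie, HOMER and SAMtools were used with the build mm9. How peaks were called and filtered, and whether against the input, is not stated in any source used here. The deposited lists, 1 per immunoprecipitation, held peaks as the authors called them, each with 3 columns (chromosome, start and end in base pairs) and no count, score or other unit, so that read depth is unknown.

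Repeated rows, 242 in replicate 1 and 480 in replicate 2, were counted once, starts were counted from 1, and a place is the order among distinct rows. Gene positions came from the selection rule on mm9. Peaks counted as members when they overlapped a window by at least 1 bp, and as shared when they overlapped a peak of the other list by at least 1 bp. The members, gene lists, motifs and named peaks (nearest, earliest and widest per gene and replicate, and shared pairs within 20 kb) were chosen with earlier results of these data known, so no test was made. Random windows were replaced by all 200 kb windows tiled between the outermost peaks of each chromosome. Shares have 95% Wilson intervals and ratios exact ones, for counting error only. Nothing in the labels says that the replicates were separate animals or pools, so that differences between them may be technical. Strands, gene order and promoter sequences came from RefSeq tables of GRCm38.p6, whose positions were not used. Counting was tested on simulated data in 5 sets of lists, against bedtools 2.31.1. Computation used scipy 1.17.1, pandas 2.3.3 and numpy 2.4.6 under Python 3.11.15, and figures matplotlib 3.10.9.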

Additional observations from a re-analysis of the deposited data

How the results depend on the processing

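The 34 replicate 1 and 12 replicate 2 peaks became 54 and 21 with windows of 200 kb either side, and 20 replicate 1 peaks in the first 50% of its file and 18 in as many rows as replicate 2 has, in each case by construction. The other alternatives, which were 50 kb either side, centres inside the window, repeated rows, positions shifted by 10 kb, peaks above the narrowest width and, for replicate 2, the first 50% of the file, gave 23 to 35 peaks in replicate 1 and 9 to 13 in replicate 2. Stricter sharing lowered both shares: overlap of 50% of both peaks left 17.6% of replicate 1 and 50% of replicate 2 Id peaks, and centres within 100 bp left 8.82% and 25%. Over the whole lists the same rules left 29.0% and 66.0%, and 19.3% and 44.0%. Against as many rows of replicate 1 as replicate 2 has, an alternative added after the data were seen, 83.3% of the replicate 2 Id peaks were shared, against 55.7% of the whole list. The shares in the first 25% of the file stayed within their intervals in every alternative run, and by width in place of file order they were 23.5% in replicate 1 and 41.7% in replicate 2. Leaving out a replicate gave 12 to 34 regions in place of 35. Shares of windows with as many peaks stayed within their intervals for 8 of 8 values when the tiling was shifted by 100 kb or slid by 10 kb and for 3 of 8 on autosomes alone, and were higher for 8 of 8 in windows centred on peaks. The 8 values include repeats. Id1 and Id2 had the same count in replicate 1, as did Id1 and Id3, and Id2 and Id4, in replicate 2. No paired analysis was possible because the input has no peak list here and the immunoprecipitations form 1 group. Unknown depth limits any reading of peaks listed in 1 replicate.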

Other observations

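Between 100 and 200 kb from the gene positions the Id2 locus held more peaks than the other loci. It had 10 replicate 1 peaks and 5 replicate 2 peaks there, against 6 and 3 at Id1, 3 and 0 at Id3 and 1 and 1 at Id4. Together these were 25 peaks per Mb in replicate 1 and 11.2 in replicate 2, against 11.2 and 4.92 per Mb over the whole lists. Around Id2, replicate 2 thus listed more peaks in this outer zone than the 2 it listed within 100 kb. For Id3 no replicate 2 peak was listed within 200 kb other than the 4 near its position. These values were chosen after they were seen, and they were not tested.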
